A study of Homo sapiens with 10 samples.

Results

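The phagocyte NADPH oxidase and its epithelial relatives were followed through 7 genes: CYBB, CYBA, NCF4, RAC2, NOX1, NOXO1 and DUOX2. A gene's probe sets were those that the array annotation maps to its symbol alone, and the probe set with the highest mean over the 10 arrays stood for the gene. In this way 16 probe sets gave 7 of the 19775 genes measured. The study hybridised 10 one-colour Affymetrix arrays, 1 per condition, from 3 human cell lines. THP1, a monocytic leukaemia line whose cells the labels call macrophages, was profiled with vitamin D3 and alone, and Hke3 and HCT116, colorectal carcinoma lines, were each profiled in coculture with THP1 and vitamin D3, in coculture with THP1, with vitamin D3, and alone. Hke3 is a clone derived from HCT116. Vitamin D3 was given for 24 hours. In cocultures THP1 exchanged soluble factors with the tumour cells without touching them, and these arrays are labelled as the tumour line. THP1 itself has no coculture array, and the labels state no agent that would differentiate THP1. The labels of the Hke3 array with vitamin D3 conflict: its source name gives no treatment, whereas title, description and culture field name the agent, and it was kept as treated.

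The phagocyte oxidase passes electrons from NADPH across a membrane to oxygen and so makes superoxide, which neutrophils and macrophages use against ingested microbes. Its membrane core is a flavocytochrome of the catalytic chain CYBB and the stabilising chain CYBA, and on activation cytosolic proteins, among them NCF1 and NCF4, and a RAC GTPase, chiefly RAC2 in blood cells, join it. The gut epithelium uses relatives of this enzyme: NOX1, a homologue of CYBB that also pairs with CYBA and is served by the organiser NOXO1 and the activator NOXA1, and DUOX2, which releases hydrogen peroxide at the mucosal surface and needs the maturation factor DUOXA2.

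On the GRCh38.p14 assembly of RefSeq, CYBB lies at chrX:37780059-37813461, CYBA at chr16:88643289-88651053, NCF4 at chr22:36861006-36878015 and RAC2 at chr22:37225270-37244269. NOX1 lies at chrX:100843324-100874359, NOXO1 at chr16:1978917-1981469 and DUOX2 at chr15:45092650-45114172. All are protein-coding genes. RefSeq promoter windows were matched for 5 of the 7 genes, not for NCF4 and RAC2. The 250 bases before the annotated start are printed for CYBB and NOX1, homologues of which only the first differed between the lines by a large amount, and for CYBA, the chain both use. The windows are chrX:37779809-37780058 on the plus strand, chr16:88651054-88651303 on the minus strand and chrX:100874360-100874609 on the minus strand. Each is written 5′ to 3′ on the strand of its gene, with any match to a searched motif in capitals.
CYBB: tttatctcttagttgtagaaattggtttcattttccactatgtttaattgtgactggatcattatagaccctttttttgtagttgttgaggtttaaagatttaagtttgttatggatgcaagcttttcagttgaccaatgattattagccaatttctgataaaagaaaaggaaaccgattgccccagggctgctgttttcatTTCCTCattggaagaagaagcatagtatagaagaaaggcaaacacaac
CYBA: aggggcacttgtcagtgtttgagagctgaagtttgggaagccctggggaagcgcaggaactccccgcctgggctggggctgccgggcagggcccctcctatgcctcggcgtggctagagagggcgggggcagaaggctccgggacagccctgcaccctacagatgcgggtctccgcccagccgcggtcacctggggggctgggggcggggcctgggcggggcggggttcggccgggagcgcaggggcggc
NOX1: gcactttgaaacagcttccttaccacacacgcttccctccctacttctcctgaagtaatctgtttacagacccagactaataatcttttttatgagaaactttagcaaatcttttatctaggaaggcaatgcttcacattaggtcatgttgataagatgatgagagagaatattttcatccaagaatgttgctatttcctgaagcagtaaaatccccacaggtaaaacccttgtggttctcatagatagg
The motifs searched, on both strands, were GAGGAA, the core bound by the myeloid factor PU.1, and 2 forms of the vitamin D receptor element, direct repeats of AGGTCA or of GGTTCA spaced by 3 bases of any kind. CYBB held 1 match, TTCCTC, which is GAGGAA on the other strand and begins 48 bases before the start. The windows of CYBA, NOX1, NOXO1 and DUOX2 held no match. GAGGAA occurred in 23.6% of 35116 windows of this length, and each repeat in 0.0057% of them. The CYBA window was rich in G and C, at 73.6%, against 34% for CYBB and 38.4% for NOX1. A match is a description of these letters and not a measured binding site.

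All values below are log2 intensities as deposited, differences are log2 differences, and values after ± are standard errors of a limma fit unless called SD. Each probe set has its own scale, so values are compared between arrays and not between genes, except where 1 limit is applied to all. The median of all values, 6.18 log2, served as the limit under which a gene was called dim. Array medians ran from 6.15 to 6.21 log2. Of 15 myeloid markers 13 were measured, and all 13 were higher in THP1 (limma adjusted p under the threshold of 0.05), as were 28.1% of all genes tested. Only 5 of the 13 exceeded the dim limit on any colon cancer array. The others were tested through the THP1 arrays alone, so the count is not evidence about the markers. The median level of the 13 was 11.93 with vitamin D3 and 11.70 log2 alone in THP1, against 5.33 to 5.65 on the colon cancer arrays. All 14 epithelial markers were measured, with medians of 5.69 and 5.55 in THP1 with vitamin D3 and alone and 10.28 to 10.83 in the colon cancer lines. Of 12 tested 10 were lower in THP1 (limma), against 40.2% of all genes tested. CDX1 (0.002) and VIL1 (0.05) did not differ detectably, and KRT20 and LGALS4 were dim on all 10 arrays. Some of the 10, such as EPCAM and CDH1, were tested through the colon cancer arrays alone, so this count is not evidence either. As a check on treatment, CYP24A1, the vitamin D hydroxylase that the hormone induces, had 10.40 log2 in THP1 with vitamin D3 and 4.51 in THP1 alone. In the colon cancer lines its vitamin D3 difference was 1.45 in Hke3 and 1.44 in HCT116 without coculture, and -1.36 in Hke3 and -0.98 in HCT116 with coculture. The vitamin D3 labels of the 4 cocultured arrays thus go against this gene, and results that use them are read with that limit.

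At their chosen probe sets, the listed subunits of the phagocyte oxidase were higher in THP1 than in both colon cancer lines. The epithelial members NOXO1, NOX1 and DUOX2 were dim or differed little. CYBB was 23.3-fold and NCF4 35.5-fold higher in THP1, RAC2 5.91-fold and CYBA 2.29-fold. NOXO1 was 1.36-fold lower in THP1, NOX1 did not pass, and DUOX2 was dim on all 10 arrays. The test was limma over all 10 arrays in a model of cell line, coculture and vitamin D3 with 5 residual degrees of freedom; the contrast was THP1 minus the mean of Hke3 and HCT116. Among 13879 genes tested, 28.1% were higher and 40.2% lower in THP1 (68.3% in all), so a call of this kind is common, and 4 of the 6 members tested were higher and 1 lower. The median difference of those 6 was 1.88, against -0.07 for all genes tested. CYBB and NCF4 exceeded 6.18 log2 through the THP1 arrays alone, and DUOX2 was not tested. Neither the count of calls nor the median is therefore evidence about the list. No label says that arrays came from separate cultures, so the p-values measure the spread between these arrays alone, which may be technical. In RNA from a whole culture, fewer cells with a transcript and less of it per cell cannot be told apart.

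CYBB, the catalytic chain, had 10.34 log2 in THP1 with vitamin D3 and 10.16 in THP1 alone. On the 8 colon cancer arrays it ran from 5.57 through a median of 5.69 to 5.79. Both THP1 arrays lay far above all colon cancer arrays, which were all dim, and the Hke3 range (5.57 to 5.79) overlapped that of HCT116 (5.57 to 5.78). The difference was 4.54 ± 0.09 (adjusted p = 2.78e-10), an approximate size because the lower level is dim. Of the other 3 CYBB probe sets, the brightest gave 4.02 ± 0.08, while the remaining pair was dim on every array, with THP1 means of 4.51 and 4.20 against colon cancer means of 4.59 and 4.14 log2.

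NCF4, which binds phosphoinositides on the phagosome and steadies the assembled enzyme, had 10.93 log2 in THP1 with vitamin D3 and 10.19 in THP1 alone. Its colon cancer values ran from 5.20 through a median of 5.36 to 5.60, all dim. The difference was 5.15 ± 0.18 (adjusted p = 9.38e-09), and its second probe set gave 6.07 ± 0.13. The groups did not overlap on either probe set.

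RAC2, the blood-cell GTPase of the enzyme, had 13.03 log2 in THP1 with vitamin D3 and 13.13 in THP1 alone. In Hke3 it had 11.14 in coculture with vitamin D3, 11.11 in coculture, 10.75 with vitamin D3 and 10.70 alone. In HCT116 the same conditions gave 10.63, 10.65, 10.27 and 10.35. The order was THP1, Hke3 and HCT116 with no overlap between lines on this probe set, and RAC2 was well above the dim limit in the epithelial lines too. THP1 exceeded the colon cancer lines by 2.56 ± 0.07 (adjusted p = 1.88e-09), and by 3.46 ± 0.12 on the second probe set. On that probe set Hke3 (8.45 to 9.11 log2) and HCT116 (8.37 to 8.82 log2) overlapped.

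CYBA, the chain shared by the phagocyte and epithelial enzymes, had 13.44 log2 in THP1 with vitamin D3 and 13.58 in THP1 alone. Hke3 gave 12.53 in coculture with vitamin D3, 12.49 in coculture, 12.38 with vitamin D3 and 12.40 alone, and HCT116 gave 12.26, 12.22, 12.18 and 12.31. CYBA was thus bright in all 3 lines, in the order THP1, Hke3, HCT116, without overlap on this probe set. Its excess in THP1 was 1.20 ± 0.08 (adjusted p = 6.17e-07). The dimmer second probe set gave 0.16 ± 0.09 and did not pass.

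Among the epithelial members, NOXO1, the organiser that serves NOX1, had 6.72 and 6.39 log2 in THP1 with vitamin D3 and alone. The colon cancer arrays gave 6.85 to 7.42 with a median of 6.99. The groups did not overlap and the difference was -0.45 ± 0.15 (adjusted p = 0.0217), but the call was lost without the array of THP1 alone (-0.32, adjusted p = 0.175), of HCT116 alone (-0.37, 0.0603) or of HCT116 with vitamin D3 (-0.42, 0.0544), and for THP1 minus HCT116 (-0.39, 0.0535). NOX1 had 6.58 and 6.26 in THP1 with vitamin D3 and alone and 6.50 to 6.74, median 6.64, on the colon cancer arrays, so the groups overlapped. Its difference of -0.24 ± 0.10 did not pass (adjusted p = 0.0555), although it did without the THP1 array with vitamin D3 (-0.41, adjusted p = 0.00877), without the Hke3 array with vitamin D3 (-0.31, 0.0254) and for THP1 minus HCT116 (-0.29, 0.0396). DUOX2 was not tested: it had 4.66 and 4.17 in THP1 and 4.80 to 5.04, median 4.87, in the colon cancer lines. The remaining 3 NOX1 probe sets, at mean levels of 6.05, 5.21 and 3.54 log2, had differences between THP1 and colon cancer means of 0.06, 0.03 and 0.01.

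**Figure D1:**
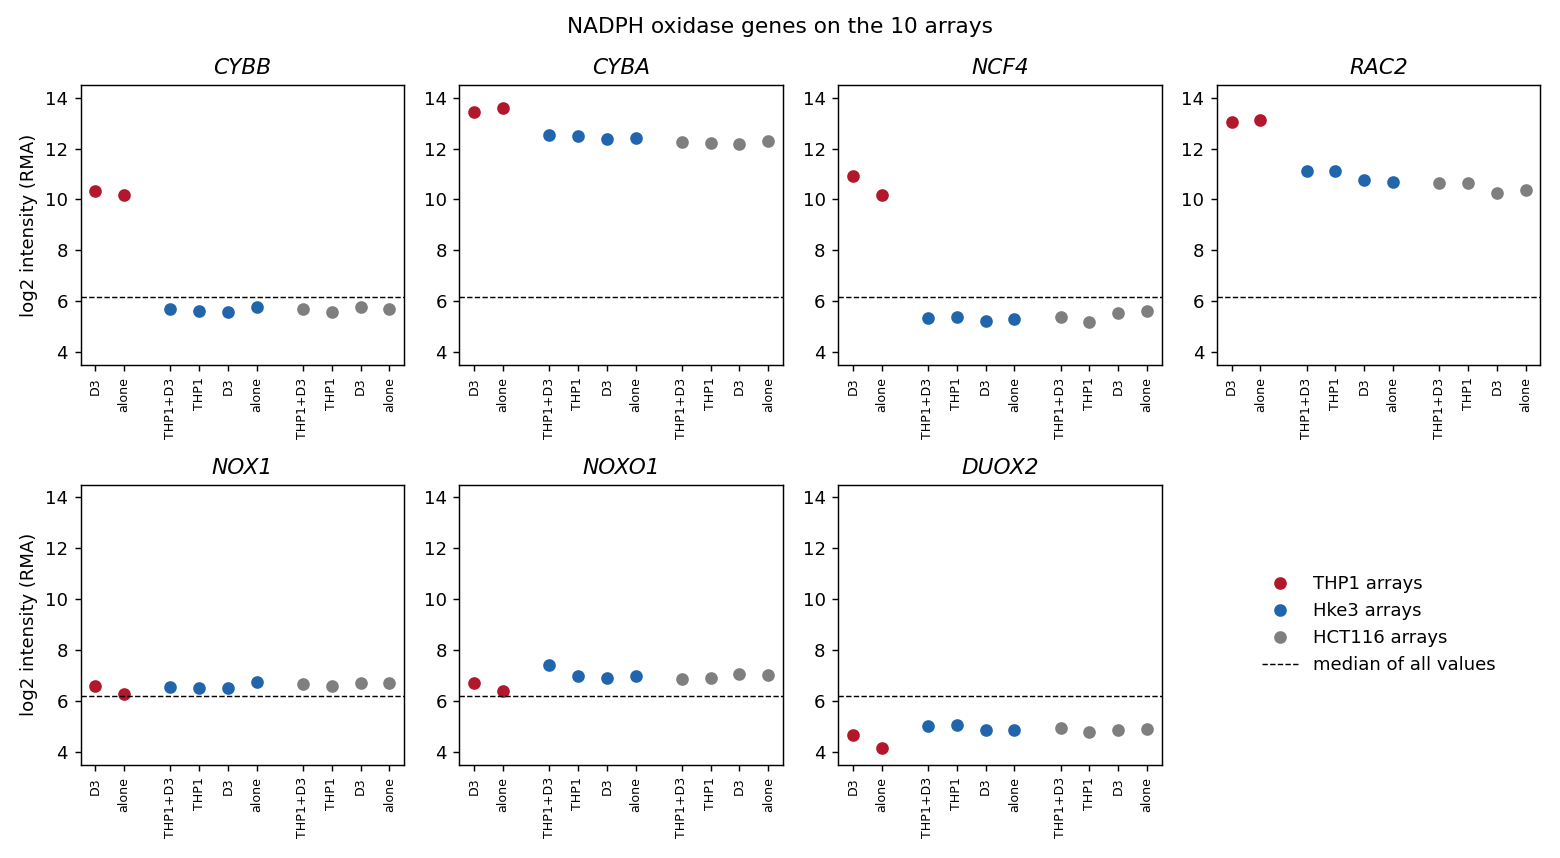
Each panel plots the log2 intensity (RMA) of 1 gene on the 10 arrays, with a point per array coloured by cell line; D3 is vitamin D3, THP1 under a colon cancer line is coculture, and the dashed line is the median of all values, 6.18 log2. CYBB and NCF4 are over the line in THP1 and under it in Hke3 and HCT116, RAC2 and CYBA are over it everywhere, and DUOX2 is under it everywhere.

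Of 14 relatives and partners of the enzyme, 12 were measured and 10 tested, and 5 were higher and 2 lower in THP1. Among all genes tested 28.1% were higher and 40.2% lower (68.3% in all), so this count is not evidence about the list. NCF1, the organiser that carries the cytosolic complex to the membrane, was higher by 2.84 ± 0.42 (adjusted p = 0.000234), with 9.85 log2 in THP1 with vitamin D3 and 7.59 in THP1 alone against 5.61 to 6.23 on the colon cancer arrays; without the THP1 array with vitamin D3 it was higher by 1.74. HVCN1, the proton channel that balances the charge the oxidase moves, was higher by 1.18 ± 0.13. RAC3, a RAC GTPase best known from nervous tissue, was lower by 1.97 ± 0.12 (log2 difference -1.97), and DUOX1, the relative of DUOX2, was lower by 1.11 ± 0.12 (-1.11). The rest of the 7 calls, named after their values were seen, were CYBC1, a chaperone of the CYBB and CYBA pair (1.03), RAP1A, a GTPase found with the flavocytochrome (0.83), and RAC1 (0.71). DUOXA2, NOXA1 and NOX5 did not pass, NOX3 and NOX4 were dim, and the remaining genes of the list are not analysed here. NCF1 has near-identical pseudogene copies that its probe set may also read, so its values are uncertain as to the gene.

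**Figure D2:**
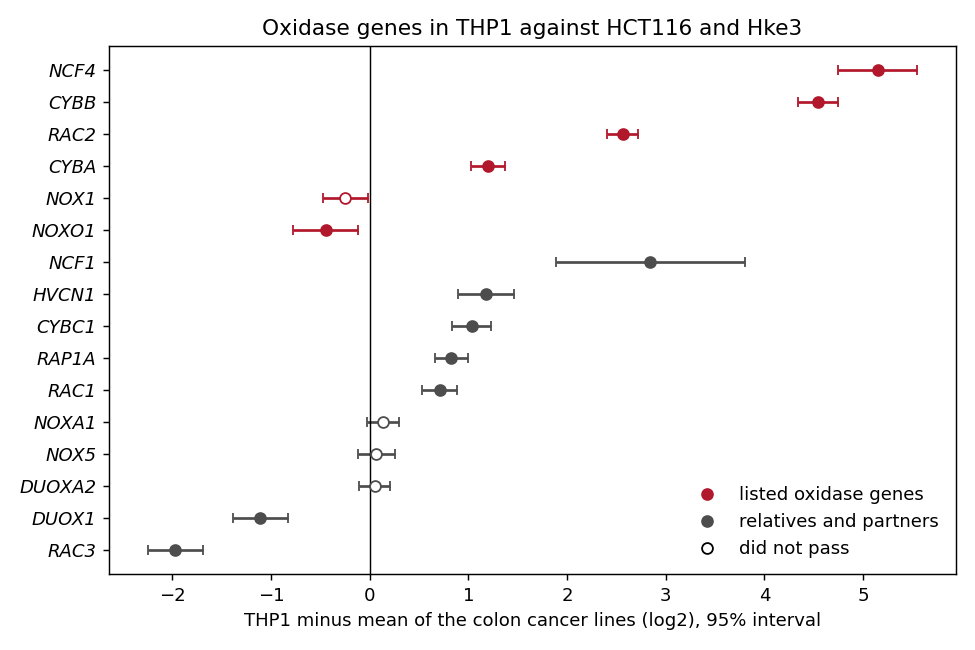
Points give the difference THP1 minus the mean of Hke3 and HCT116 (log2, x axis) for the tested oxidase genes and their relatives, with 95% intervals of the limma fit; open points did not pass an adjusted p of 0.05. NCF4 (5.15) and CYBB (4.54) lie farthest to the right and RAC3 (-1.97) farthest to the left.

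Of 16 genes that activate the phagocyte enzyme, 15 were tested, and 12 were higher and 2 lower in THP1. Those with the highest fitted differences were ARHGDIB, the blood-cell inhibitor that keeps RAC proteins in the cytosol (6.96 ± 0.17), DOCK2, a RAC exchange factor of blood cells (6.84 ± 0.08), the Fc receptor FCGR2A (4.84 ± 0.13) and the lipid kinase chain PIK3CG (4.69 ± 0.13). DOCK2, FCGR2A and PIK3CG were dim on all 8 colon cancer arrays and ARHGDIB had a colon cancer mean of 6.14 log2, so these sizes, and their order, are approximate. The lower genes were the exchange factor TIAM1 (-3.04) and the widely expressed inhibitor ARHGDIA (-0.40). Of 14 tested genes that handle superoxide and peroxide, 4 were higher and 6 lower: catalase CAT was higher by 2.27 and the glutathione peroxidase GPX1 by 1.19, while thioredoxin reductase TXNRD1 (-1.39) and thioredoxin TXN (-0.53) were lower. Of 8 tested transcription factors tied to myeloid genes, 5 were higher, led by IRF8 (5.31), CEBPA (4.52), SPI1, which encodes PU.1 (2.43), and ELF1 (2.33), and CEBPB was lower (-1.34). Both tested gut factors, GATA6 (-3.40) and CDX2 (-0.94), were lower in THP1. The sizes for SPI1, dim in the colon cancer lines, and for GATA6, CDX2 and DUOX1, dim in THP1, are approximate too. So is that for NCF1, dim on every colon cancer array except HCT116 in coculture without vitamin D3. The background shares given above, 28.1% higher and 40.2% lower, apply to these counts as well. Genes dim in THP1 or in the colon cancer lines were tested through the other arrays alone, so these counts are not evidence about the lists.

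RAC2 rose with THP1 coculture in the colon cancer lines, and no other tested member passed the threshold. RAC2 was 1.29-fold higher with coculture (0.36 ± 0.05, adjusted p = 0.0144, limma on the 8 colon cancer arrays in an additive model of line, coculture and vitamin D3 with 4 residual degrees of freedom), and higher in 4 of 4 pairs of arrays that differ in coculture. Those pairs gave 0.39 in Hke3 with vitamin D3, 0.41 in Hke3 without it, 0.36 in HCT116 with it and 0.29 in HCT116 without it. Within each line both cocultured arrays lay above both others, while across the lines the cocultured HCT116 arrays (10.63 and 10.65 log2) lay just under the Hke3 arrays without coculture (10.75 and 10.70). Among 13243 genes tested 3.76% rose and 4.05% fell (7.82% in all), and 1 of 4 members tested rose. The second RAC2 probe set gave 0.40 ± 0.07 (adjusted p = 0.025 over 24732 probe sets), and in it, too, all 4 pairs were higher. Without the HCT116 array with vitamin D3 the adjusted p was 0.0569 at a difference of 0.35, and no other left-out array ended the call.

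**Figure D3:**
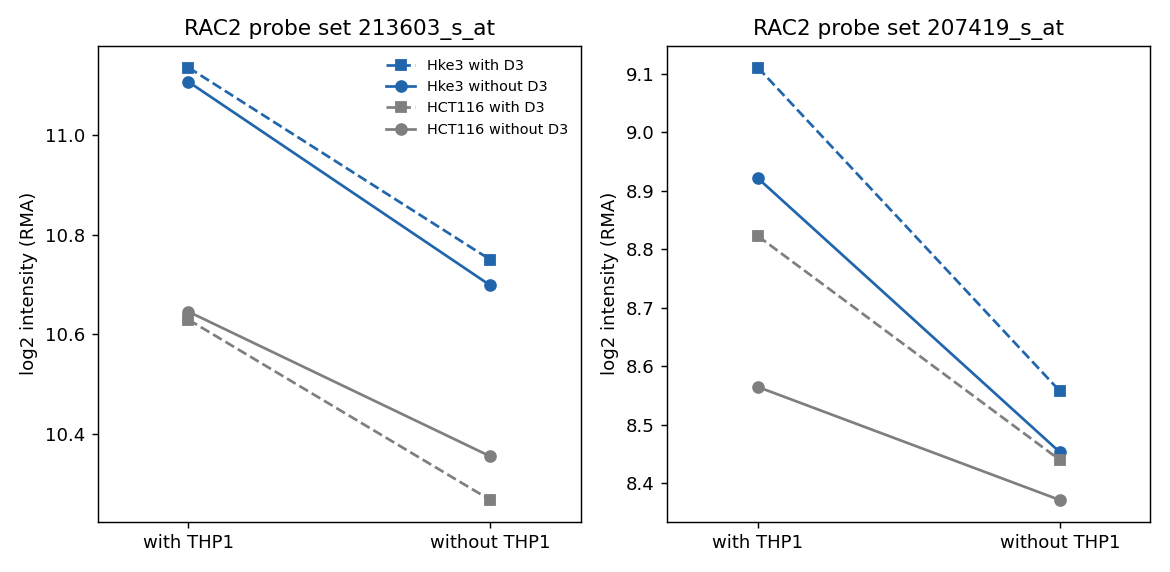
Lines join the arrays of a colon cancer line with THP1 coculture (left) and without it (right), for both RAC2 probe sets on the log2 intensity scale (RMA), with squares for vitamin D3 and circles without; the axes do not start at 0 and differ between panels. Every line is higher on the coculture side, by 0.29 to 0.41 in the left panel.

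Myeloid markers were read on the same arrays, since THP1 cells were in the same cultures. The summed linear intensity of the 13 myeloid markers was 722 to 778 with coculture and 729 to 779 without it, against 73940 and 55250 in THP1 with vitamin D3 and alone. Of the 13 markers 4 or 5 exceeded the dim limit on cocultured arrays and 4 on the others. CYBB pairs differed by -0.17 to 0.12 and NCF4 pairs by -0.40 to 0.14. LAPTM5, a bright myeloid marker of THP1, differed by 0.01, with pairs of -0.33 to 0.26. SRGN, a proteoglycan gene of blood-cell granules, differed by 0.69 and did not pass (limma adjusted p = 0.139), yet it was higher with coculture in 4 of 4 pairs. Those pairs gave 1.90 in Hke3 with vitamin D3, 0.18 in Hke3 without it, 0.20 in HCT116 with it and 0.49 in HCT116 without it. No other of the 13 markers was higher in 4 of 4 pairs. ITGB2, dim on all colon cancer arrays, was lower in 4 of 4 pairs (-0.28 to -0.11). The highest colon cancer value of SRGN, 6.28 log2, was that of Hke3 in coculture with vitamin D3, and its other colon cancer values were dim. Without that array the RAC2 difference was 0.35 (limma adjusted p = 0.0382). None of the 5 myeloid markers tested passed for coculture (limma; 1 had an unadjusted p under 0.05). Other measures did move with coculture. The 3' minus 5' difference of the ACTB probe sets, which rises as RNA quality falls, was lower in all 4 pairs: 0.56 in Hke3 in coculture with vitamin D3 against 0.72 with vitamin D3 alone, 0.62 in Hke3 in coculture against 0.94 alone, and in HCT116 0.23 against 0.25 and 0.16 against 0.30. The median of the epithelial markers was 10.52 to 10.83 log2 with coculture and 10.28 to 10.45 without it, higher in all 4 pairs, and 1 of 12 tested, the epithelial factor ELF3, rose (0.53, adjusted p = 0.038), a call lost in 6 of 8 fits with a single array left out. The part of these measures in the RAC2 difference was not tested.

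CYBA differed by 0.06 ± 0.06 with coculture (95% interval -0.07 to 0.19, adjusted p = 0.557), NOXO1 by 0.04 ± 0.12 (-0.23 to 0.30, 0.871) and NOX1 by -0.08 ± 0.06 (-0.23 to 0.06, 0.453). The highest NOXO1 value of all arrays, 7.42 log2, came from Hke3 in coculture with vitamin D3, 0.51 above Hke3 with vitamin D3, whereas the other 3 pairs ranged from -0.22 to -0.01. CYBB, NCF4 and DUOX2 were dim on all 8 arrays and were not tested. For the lists that follow, and for the markers above, the shares of all genes tested were 3.76% higher and 4.05% lower with coculture. None of 10 relatives and partners passed (limma; 1, RAC3 at -0.21, had an unadjusted p under 0.05). Of 11 activating genes 2 rose: the kinase PRKCA (0.39 ± 0.08, adjusted p = 0.0274) and VAV1, an exchange factor for RAC proteins (0.21 ± 0.05, adjusted p = 0.047), both higher in 4 of 4 pairs. With single arrays left out in turn the call was lost in 6 of 8 fits for PRKCA (differences of 0.35 to 0.47 over the 8) and in 8 of 8 for VAV1 (0.19 to 0.23). None of 13 tested superoxide and peroxide genes passed (limma; 4 had an unadjusted p under 0.05), nor any of 7 myeloid (1 at unadjusted p under 0.05) or 2 gut factors (0 at unadjusted p under 0.05).

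The coculture response of the members did not differ detectably between the lines. For RAC2 the mean was 0.40 in Hke3 and 0.33 in HCT116, an interaction of 0.07 ± 0.10 (95% interval -0.15 to 0.29, adjusted p = 0.719). NOXO1 had a mean of 0.25 in Hke3 and -0.18 in HCT116, an interaction of 0.43 ± 0.18 that did not pass (unadjusted p = 0.0429, adjusted p = 0.21). None of the 4 members passed in this test, which called 4.21% of all genes (1.87% with a higher response in Hke3 and 2.34% with a lower one) and had 3 residual degrees of freedom. Without the Hke3 array in coculture, NOXO1 passed at 0.67 (adjusted p = 0.0429).

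RAC2 and CYBA were higher in Hke3 than in HCT116. RAC2 was higher by 0.45 ± 0.05 (1.37-fold, adjusted p = 0.000428) and CYBA by 0.20 ± 0.06 (1.15-fold, adjusted p = 0.024), each in 4 of 4 pairs that differ in cell line. The pairs ranged from 0.34 to 0.51 for RAC2 and from 0.09 to 0.27 for CYBA. Higher calls made up 24.8% and lower calls 15.7% of all genes (40.5% together) in this comparison, and 2 of 4 members tested were higher. The second RAC2 probe set gave 0.21 ± 0.07 (adjusted p = 0.0413 over all probe sets), under the first by more than 1.5 times, and the second CYBA probe set gave 0.15 and did not pass (adjusted p = 0.095). The CYBA call was lost (adjusted p of 0.0604 to 0.0849) without any one of the arrays of Hke3 in coculture with vitamin D3, Hke3 in coculture, HCT116 in coculture with vitamin D3, HCT116 in coculture and HCT116 with vitamin D3. NOXO1 (0.11 ± 0.12, adjusted p = 0.46) and NOX1 (-0.09 ± 0.06, 0.285) did not pass. The ACTB 3' minus 5' difference was 0.71 ± 0.17 in Hke3 and 0.24 ± 0.05 in HCT116 (SD, n = 4 each), and its part in these differences was not tested. SRGN was the 1 of 5 tested myeloid markers to pass between the lines (0.84 higher in Hke3, limma adjusted p = 0.0324), and its part was not tested either. Among the colon cancer arrays SRGN exceeded the dim limit only in Hke3 with both THP1 and vitamin D3, and it was tested through that array alone. Without that array its difference was 0.49, and its call was lost in 4 of 8 fits with a single array left out.

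Among partners and regulators, the calls are read against the 24.8% of all genes that were higher and the 15.7% that were lower in Hke3. Of 10 relatives 2 were higher in Hke3, RAC3 (0.42) and DUOX1 (0.39), and none was lower. Of 11 activating genes 5 were higher, among them TIAM1 (1.05), PIK3CD, a lipid kinase chain (0.61), and PRKCA (0.61), and 2 were lower, SYK, a kinase that acts below Fc receptors (-1.83), and VAV1 (-0.39). Of 13 superoxide and peroxide genes 7 were higher, with PRDX2 (0.51), GPX4 (0.28), CAT (0.25) and PRDX1 (0.22) in front, and PRDX4 was lower (-0.18). Of 7 myeloid factors 2 were higher in Hke3, CEBPA (0.44) and IRF1 (0.20), and none was lower; of 2 gut factors 1 was higher, GATA6 (0.39). With single arrays left out in turn, the call was lost in 6 of 8 fits for IRF1, in 5 for GATA6 (whose difference was 0.24 without HCT116 in coculture), in 6 for PRDX4, in 5 for PRDX1 and in 3 for CAT.

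NCF4 was higher by more than 1.5-fold in THP1 with vitamin D3, and no other member that exceeded the dim limit differed by that much. With 1 array per condition this comparison has no test, and 4.36% of 12717 genes were higher and 2.23% lower by more than 1.5-fold (6.59% together). NCF4 was 1.67-fold higher with vitamin D3 (10.93 against 10.19 log2, a difference of 0.74), and its second probe set differed by 0.66. CYBB differed by 0.18 and by -0.06 on its second bright probe set. RAC2 differed by -0.10 and by -0.31 on its second probe set, and CYBA by -0.14 and by -0.04 on its dimmer second probe set. NOXO1 and NOX1 differed by 0.33 and 0.32 at levels near the dim limit, and the 3 other NOX1 probe sets by -0.25, -0.22 and -0.04. DUOX2, dim on both arrays, differed by 0.49. The median of the 6 members over the limit was 0.25, against -0.01 for all genes. It includes NOXO1 and NOX1 near the dim limit and rests on 1 array per condition, so it is not evidence about the list.

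Among the partners the largest vitamin D3 difference was that of NCF1, with 9.85 log2 in THP1 with vitamin D3 and 7.59 in THP1 alone, 4.77-fold higher and ranked 42 of 12717 genes counted from the most raised. The other 8 partners over the limit stayed within 1.5-fold, the widest being RAC3 at -0.48 and HVCN1 at -0.41. Of 15 activating genes, 2 were higher, TIAM1 (1.02) and VAV1 (0.70), and 3 lower, PIK3CG (-0.73), FCGR2A (-0.70) and, named after its value was seen, PREX1 (-0.66). SOD2, the mitochondrial superoxide dismutase, was the one gene of 14 in its list past 1.5-fold (1.16), and none of 8 myeloid factors was. CD14, a monocyte surface receptor known to respond to vitamin D, differed by 5.47 and the antimicrobial peptide gene CAMP by 5.41 on the same arrays.

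**Figure D4:**
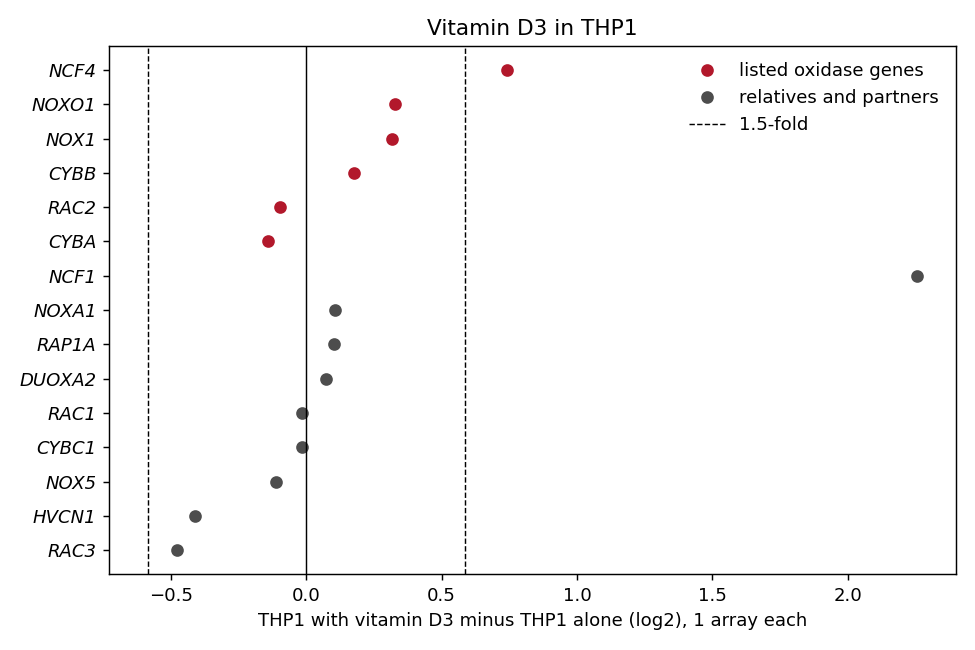
Each point is the log2 intensity of THP1 with vitamin D3 minus THP1 alone (x axis, 1 array each, no error bar) for an oxidase gene or partner over the dim limit on at least 1 of the arrays, and dashed lines mark 1.5-fold. NCF1 (2.26) and NCF4 (0.74) lie past the line on the right and the rest lie between the lines.

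In the colon cancer lines no member passed for vitamin D3. RAC2 differed by -0.01 ± 0.05 (95% interval -0.13 to 0.12), CYBA by -0.02 ± 0.06 (-0.15 to 0.12), NOX1 by -0.02 ± 0.06 (-0.17 to 0.13) and NOXO1 by 0.08 ± 0.12 (-0.18 to 0.34). On these probe sets none of the 4 reached an unadjusted p under 0.05 either. Limma called 0% of 13243 genes (375 at an unadjusted p under 0.05, and 0 calls with trend and robust fitting). Second probe sets gave larger differences, -0.22 ± 0.07 for CYBA, 0.16 ± 0.07 for RAC2 and -0.10 ± 0.07 for NOX1, and none passed over 24732 probe sets. NCF4 and CYBB, dim in these lines, had vitamin D3 pairs of -0.08 to 0.17 and of -0.21 to 0.13. These values rest on the vitamin D3 labels, which CYP24A1 contradicts in the cocultures. CYP24A1 itself differed by 0.14 ± 0.47 in this fit and did not pass, as its pairs with and without coculture had opposite signs. A member's response could cancel in the same way, so this fit cannot decide whether the members respond. Without coculture the Hke3 and HCT116 pairs were 0.05 and -0.09 for RAC2 and -0.02 and -0.13 for CYBA. They were -0.23 and 0.01 for NOX1 and -0.09 and 0.03 for NOXO1, untested.

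The genes nearest to each member were taken as those with the smallest root mean square difference of gene-centred log2 values over the 10 arrays. The 3 nearest to CYBB were LPAR6 (0.085), CRISPLD1 (0.105) and SAMD9L (0.107), and to NCF4 they were IGFBP7 (0.16), CES1 (0.18) and MYO1F (0.18). RAC2 was nearest to CFD (0.11), PARP8 (0.13) and SQOR (0.14), CYBA to ARRB1 (0.052), CBL (0.068) and SYNGR1 (0.069), and NOXO1 to HAR1A (0.084), GRK4 (0.089) and SLC15A4 (0.099). The likeness is set mainly by the step between THP1 and the colon cancer lines, which many genes share. NOX1 and DUOX2 spanned less than 1 log2 over the arrays and were left out of this search.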

How the data were processed

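The deposited values are log2 intensities of probe sets, and RMA and the R package affy are named in the submitters' processing notes; RMA corrects background, quantile-normalises and summarises probes. Versions, and whether all arrays were normalised together, are not given in the sources used here. Arrays were grouped by title, 1 per condition. Of 54675 probe sets, 41097 map to 1 gene symbol (updated by gene ID to RefSeq symbols) and 1801 that map to several were left out. Each gene was its probe set with the highest mean. Genes were tested where their highest value on the arrays compared exceeded 6.18 log2. The number of arrays limits the precision.

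Tests used limma 3.58.1 in R 4.3.3, two-sided, with Benjamini-Hochberg adjustment over all genes tested and a threshold of 0.05, checked on simulated data. Members, gene lists and alternatives were chosen with earlier results of these data known. The 7 members were always named, with up to 4 called genes per list and comparison by size and the 3 nearest genes of members spanning 1 log2; CYP24A1, CAMP, SRGN, LAPTM5 and CD14 served as checks. Lists are described by counts and medians. Figures used matplotlib 3.10.9 in Python 3.11.15. Alternatives were other filters, probe-set rules, scalings, trend and robust fitting, left-out arrays, a minimum fold, a block of the other 2 factors, other contrasts and, added after the data were seen, no vitamin D3 term.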

Additional observations from a re-analysis of the deposited data

Results flagged for a closer look

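The mean coculture difference of NCF4 had opposite signs in the lines, 0.11 in Hke3 and -0.29 in HCT116, each in both pairs of its line, a gap of 0.403 log2. NCF4 was dim on all of these arrays and the difference was not tested. The mean vitamin D3 difference of RAC2 was 0.04 in Hke3 and -0.05 in HCT116, again with both pairs of a line on the same side, a gap of 0.092 log2 that was not tested and that rests on the vitamin D3 labels.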

How the results depend on the processing

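The labels give no replicate numbers. A block of the other 2 factors, which pairs arrays that differ in 1 factor, changed no member's call (RAC2 with coculture 0.36, adjusted p = 0.0411). CYBB, CYBA, NCF4 and RAC2 stayed higher in THP1 under all 22 alternatives run for each, from 2.15 to 4.62, 0.68 to 1.36, 4.78 to 5.61 and 2.34 to 3.01 log2; the lowest CYBB and CYBA values came from averaging probe sets. With a single array left out, 4 to 6 members passed for THP1 against the colon cancer lines, 1 to 2 for Hke3 against HCT116, 0 to 1 for coculture, 0 to 1 for its interaction and 0 for vitamin D3. Leaving out a THP1 array assumes that the lone one varies like the other lines. At a minimum of 1.5-fold 0 members passed for coculture and 0 for cell line, and at 2-fold 0 members changed with vitamin D3 in THP1. Small, uncalled differences turned sign: CYBA for coculture with averaged probe sets (-0.044), and for vitamin D3 in the colon cancer lines CYBA (0.0073) and NOX1 (0.0017) with median-centred arrays, RAC2 with median-centred arrays (0.017) and averaged probe sets (0.075), and NOX1 with cyclic loess (0.0029). Left-out arrays did the same for NOXO1 with coculture (-0.11 to 0.12, with -0.058 without Hke3 with vitamin D3) and cell line (-0.029 to 0.21), for the NOX1 interaction (-0.17 to 0.11, with 0.035 and 0.020 also turned) and for vitamin D3 in CYBA (-0.046 to 0.028, with 0.0013), RAC2 (-0.029 to 0.023, with 0.0057 and 0.0056), NOX1 (-0.05 to 0.034, with 0.027) and NOXO1 (-0.064 to 0.17); the cause was not tested. The background counts moved too: 1035 genes for coculture were 39 to 435 with an array left out, 656 with no filter, 259 with the block and 75 at 1.5-fold, and the share of higher calls was 66.1% with cyclic loess against 48.1%. The interaction's 557 were 101 to 282 with an array left out, 277 with no filter, 973 with the stricter filter, 865 per probe set, 1169 with trend and robust fitting and 344 at 1.5-fold. For cell line, 5364 were 10283 per probe set and 938 at 1.5-fold, and for THP1 9478 were 17689 and 6224. No scaling moved the median of all genes by over 0.1 log2. Dim levels limit the sizes for CYBB, NCF4, DUOX2 and the dim partners and regulators.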

Other observations

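RAC1, the widely expressed RAC GTPase, had 4 probe sets, 3 of them over the dim limit, which gave unequal differences between Hke3 and HCT116. One probe set was lower in Hke3 (-0.57 ± 0.08, limma adjusted p = 0.00118 over 24732 probe sets), with 10.66 to 10.93 log2 on the Hke3 arrays and 11.26 to 11.59 on the HCT116 arrays, while the brightest (0.02 ± 0.07) and the second brightest (-0.03 ± 0.07) did not pass. All 3 were higher in THP1 than in the colon cancer lines, by 1.10, 0.71 and 0.45 in the same order. RAC1 was singled out after its values were seen.

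CEBPB, a transcription factor of stress and myeloid genes, was the one factor in the 2 lists whose coculture response differed between the lines (interaction -0.65 ± 0.10, adjusted p = 0.0162). The call was lost in 6 of 8 fits with a single array left out, and the difference was -0.72 to -0.59 over the 8. Its Hke3 pairs gave -0.02 and 0.002, and its HCT116 pairs 0.72 and 0.56, with and without vitamin D3.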
